A study of Mus musculus with 6 samples.

Results

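The 10 genes described here are regulators and markers of the integrated stress response, the programme that cells switch on when the translation factor eIF2 is phosphorylated. They are the transcription factors Atf4, Ddit3 (CHOP), Atf3, Atf5 and Cebpg, the pseudokinase gene Trib3, the phosphatase subunit gene Ppp1r15a (GADD34), the glutathione-degrading enzyme gene Chac1, and the mTORC1 inhibitor genes Sesn2 and Ddit4. The members were taken by name from a list of regulatory, non-enzyme genes, although Chac1 encodes an enzyme, and all 10 were among the 16840 gene symbols of the deposited count table. Expression had been measured by RNA sequencing of total RNA in 6 libraries from mouse alveolar macrophages of wild type in culture, cells that live in the air spaces of the lung, at day 2. Each of 3 groups held 2 libraries, namely GM-CSF with DON, GM-CSF alone and no GM-CSF. GM-CSF is the cytokine on which these cells depend, and DON is a treatment that the labels do not spell out. The labels give wild type as the genotype and AM as a cell line, do not say if that means a primary culture, and give no dose of either agent. Nothing in them describes the replicates as separate cultures or animals, and p-values then reflect no more than the spread between the libraries at hand, which may be technical.

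In this pathway, kinases that sense amino acid shortage (GCN2), unfolded protein in the endoplasmic reticulum (PERK), double-stranded RNA (PKR) or haem shortage (HRI) phosphorylate eIF2. General translation slows while the mRNA of Atf4 is translated better, and the ATF4 protein then switches on genes of amino acid synthesis, uptake and tRNA charging, along with further regulators. CHOP is one of those regulators and is best known for its link to cell death under lasting stress, while GADD34 closes the circuit by bringing a phosphatase back to eIF2.

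Total counts lay between 28321986 and 35196387 per library. Levels are given as CPM, the counts in a library scaled to a common size by edgeR's TMM method, with the mean ± SD over 2 libraries, and changes as log2 fold changes ± SE. Calls are at an adjusted p under 0.05 by the quasi-likelihood test of edgeR, Benjamini-Hochberg adjusted across the 12340 genes tested. "Rose" and "fell" are used of such genes alone. Defining markers of alveolar macrophages were present, with all 12 of a list in the table and sums of 16876 and 16785 CPM in GM-CSF with DON, 13165 and 13143 CPM in GM-CSF alone, and 10926 and 10238 CPM in no GM-CSF. In GM-CSF with DON and in GM-CSF alone these sums were mostly Chi3l3 (7700 ± 83.6 and 5542 ± 10.7 CPM) and Itgax (3967 ± 51.0 and 3034 ± 67.3 CPM). In no GM-CSF the largest parts were Itgax (3027 ± 307 CPM), Cd68 (2863 ± 48.2 CPM) and Chi3l3 (1814 ± 6.67 CPM). The single markers moved in both directions. With DON 7 of 12 were called higher and 3 lower, against 28.8% of all tested genes each way. Emr1 was among the higher (0.79 ± 0.05), and the lower were Marco (-1.19 ± 0.10), Ear2 (-1.22 ± 0.09) and Car4 (-1.06 ± 0.04). With GM-CSF 3 were called higher and 7 lower, against 27.5% and 29.3%. Chi3l3 was among the higher (1.61 ± 0.03), and Emr1 (-2.41 ± 0.05) and Krt79 (-1.53 ± 0.23) among the lower. Car4 was at 314 ± 15.7 CPM in GM-CSF with DON, 656 ± 6.51 CPM in GM-CSF alone and 0.226 ± 0.0159 CPM in no GM-CSF. In bulk samples, fewer cells of a type and less RNA per cell cannot be told apart. Markers of other lung cells differed by group and, apart from Vwf, were low. The sum of 5 epithelial genes was 1.33 and 0.798 CPM in GM-CSF with DON, 0.880 and 1.41 CPM in GM-CSF alone, and 3.17 and 4.31 CPM in no GM-CSF, where Scgb1a1 had 5 and 7, 0 and 8, and 38 and 33 counts in the same order. The 1 of 4 granulocyte genes in the table, S100a8, was at 3.78 and 3.04 CPM in GM-CSF with DON, 4.34 and 3.76 CPM in GM-CSF alone, and 15.95 and 17.2 CPM in no GM-CSF. The 2 of 4 lymphocyte genes in the table summed to at most 0.134 CPM. Of 4 genes of stroma and endothelium, Vwf made up nearly the whole sum, at 252 and 272 CPM in GM-CSF with DON, 92.8 and 103 CPM in GM-CSF alone, and 205 and 175 CPM in no GM-CSF, while Cdh5 had 15 and 26, 44 and 46, and 2 and 1 counts in that order. No gene of these lists in the table was at 0 in every library. The part of these markers in the results was not tested.

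All 10 genes are annotated as protein-coding, and counts were summed over each gene. The annotation holds a second protein-coding entry named Ddit3, at chr10:127290829-127293753, which lies within the span given next for Ddit3. In GRCm38 coordinates Atf4 lies at chr15:80255184-80257541, Ddit3 at chr10:127290774-127296288, Atf3 at chr1:191170296-191218039, Atf5 at chr7:44812256-44816658 and Cebpg at chr7:35046422-35056573. Trib3 lies at chr2:152337422-152344032, Ppp1r15a at chr7:45522916-45526268, Chac1 at chr2:119351229-119354381, Sesn2 at chr4:132492032-132510501 and Ddit4 at chr10:59949669-59951834. Exons of Ddit3 share 68 bases with the oppositely transcribed gene Mars, and exons of Atf5 share 82 bases each with Nup62 and Il4i1. Shorter overlaps on the opposite strand are 13 bases of Ddit3 with Gm4189 and 12 bases of Ppp1r15a with Tulp2. Exons of Cebpg share 73 bases with Gm44836 on the same strand and 4 with Gm45095 on the other. Neither of these is in the count table. The strand setting of the counting is not given in the sources used here, so reads in those stretches could belong to either gene. With DON, Mars had a log2 fold change of 0.16 ± 0.05 and Nup62 one of 0.03 ± 0.05, while with GM-CSF they had 0.97 ± 0.05 and 0.78 ± 0.05. In the same order Il4i1, at about 1 CPM, had 0.60 ± 0.34 and -0.15 ± 0.35, neither of them called.

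ATF4 binds DNA as a dimer with C/EBP proteins at composite elements, and related factors bind the cAMP response element. The 250 bases before the start of each gene, taken from RefSeq promoters of GRCm38.p6, were searched on both strands for TGATGNAAT, the composite element, and TGACGTCA, the cAMP response element. TGATGNAAT was found in 0 of the 10 members, against 0.816% of 32851 promoters. TGACGTCA was found in 1 member, Ppp1r15a, 12 to 5 bases before its start, against 1.55% of promoters. A shorter form, TGATGNAA, which lies within every match of the longer one, was searched after the longer one had given no member. It was found in Chac1, 193 to 186 bases before the start, and in Atf3, 110 to 103 bases before the start of the RefSeq transcript used, against 3.45% of promoters. Of 27 metabolic ATF4 targets with a promoter in the table, 3 held TGATGNAAT, and 8 held the shorter form, among them asparagine synthetase (Asns), 23 to 16 bases before its start. These matches are letters in a window and not shown to be bound sites, and the absence of a match says nothing about binding elsewhere. The windows of the 3 members with a match and of Asns, the metabolic target used for comparison later on, are printed 5′ to 3′ on the strand of the gene, with the matched letters in capitals (TTGCATCA is a match read on the other strand).
Chac1, chr2:119350992-119351241, plus strand: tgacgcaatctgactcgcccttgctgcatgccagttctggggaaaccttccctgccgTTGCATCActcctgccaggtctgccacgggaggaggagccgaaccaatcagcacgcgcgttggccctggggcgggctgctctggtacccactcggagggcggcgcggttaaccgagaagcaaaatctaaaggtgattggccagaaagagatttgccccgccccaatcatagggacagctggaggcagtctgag
Atf3, chr1:191183334-191183583, minus strand: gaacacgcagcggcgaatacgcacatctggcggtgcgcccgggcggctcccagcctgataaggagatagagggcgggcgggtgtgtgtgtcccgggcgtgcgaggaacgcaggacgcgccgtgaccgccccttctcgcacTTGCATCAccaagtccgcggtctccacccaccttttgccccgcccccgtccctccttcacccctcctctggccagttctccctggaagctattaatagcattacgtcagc
Ppp1r15a, chr7:45526269-45526518, minus strand: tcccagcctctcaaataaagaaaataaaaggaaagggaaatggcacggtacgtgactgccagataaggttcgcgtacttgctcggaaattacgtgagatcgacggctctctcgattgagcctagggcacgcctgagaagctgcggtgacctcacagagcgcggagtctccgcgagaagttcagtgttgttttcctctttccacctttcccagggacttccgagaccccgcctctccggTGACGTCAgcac
Asns, chr6:7693210-7693459, minus strand: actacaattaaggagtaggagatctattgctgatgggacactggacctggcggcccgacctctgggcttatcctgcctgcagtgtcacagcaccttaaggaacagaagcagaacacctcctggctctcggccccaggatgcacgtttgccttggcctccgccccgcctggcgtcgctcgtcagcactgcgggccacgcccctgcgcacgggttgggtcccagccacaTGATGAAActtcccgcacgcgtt

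The first comparison set GM-CSF with DON beside GM-CSF alone and asks about the effect of DON in the presence of the cytokine. All 10 regulators were called higher, by 1.21-fold for Atf3 to 6.04-fold for Ddit3. Over all tested genes 28.8% were called higher. Ddit4 passed the filter on low counts only through the libraries with DON, so the count that can be read is 9 of the other 9. At least 2-fold rises were found for Ddit3, Chac1, Trib3, Ppp1r15a and Sesn2, and for Ddit4, against 5.12% of all tested genes. The median log2 fold change was 1.57 over the 10 regulators, 1.69 without Ddit4 and 0.01 over all tested genes.

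The second comparison, GM-CSF alone against no GM-CSF, gave a mixed picture for the same genes. Atf4, Atf5, Cebpg, Trib3, Chac1 and Sesn2 were called higher, 6 of 10 against 27.5% of all tested genes. Atf3 and Ppp1r15a were called lower, 2 of 10 against 29.3% of all tested genes, and Ddit3 and Ddit4 were not called. Their median log2 fold change was 0.56, against -0.02 over all tested genes. Ddit4 passed the filter on low counts only through the libraries with DON. Without it 6 of 9 were called higher and 2 lower, with a median of 0.54. The first and second comparisons share the GM-CSF libraries, so the values are given side by side and no relation between them is drawn.

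**Figure D1:**
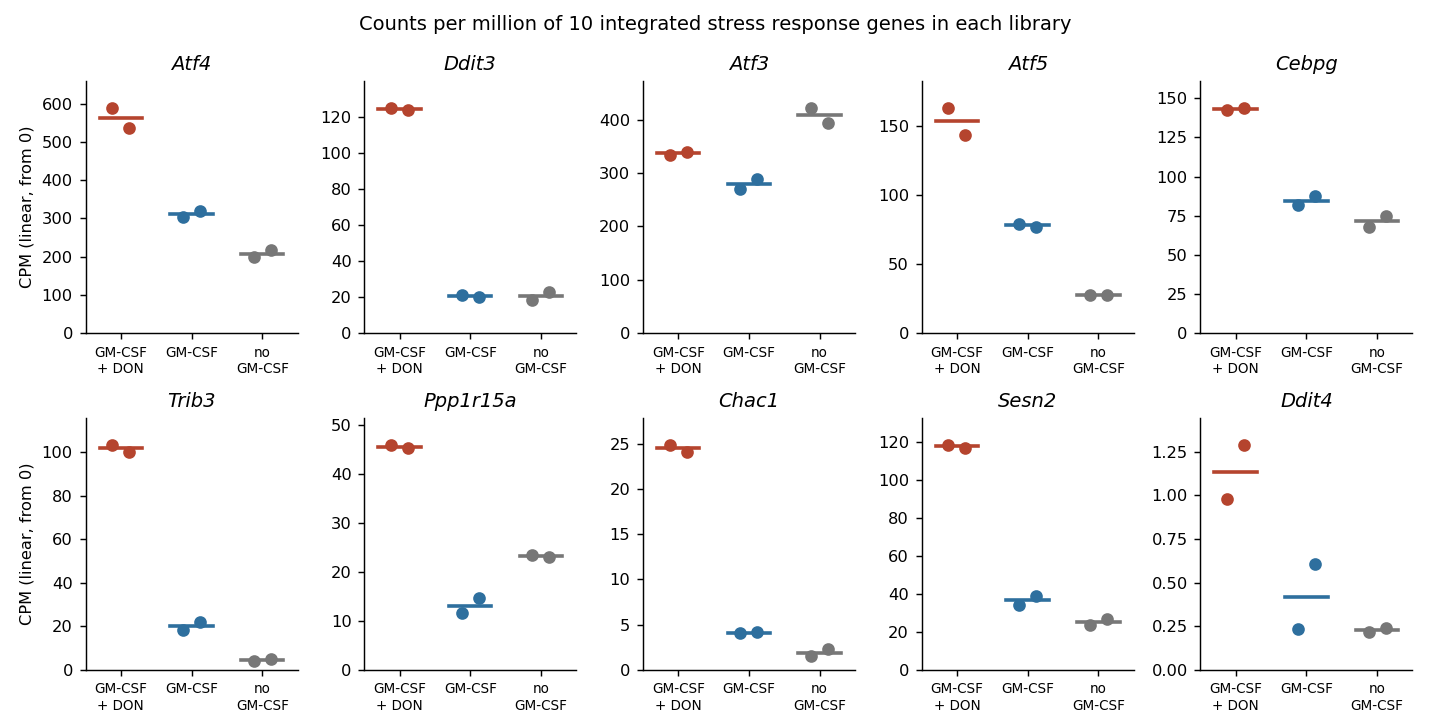
Scaled counts (CPM, vertical axis from 0, scaled for each gene) of the 10 regulators in each library, with groups from left to right GM-CSF with DON, GM-CSF alone and no GM-CSF. Points are the 2 libraries of a group and lines their mean. Ddit3 sits at 125 and 124 CPM with DON and between 18.5 and 22.6 CPM in the other 4 libraries, while Atf3 is highest without GM-CSF.

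Atf4, the central transcription factor of the pathway, had 588 and 537 CPM in GM-CSF with DON, 303 and 320 CPM in GM-CSF alone, and 198 and 217 CPM in no GM-CSF. The groups did not overlap, and each was above the next in that order. Atf4 rose with DON by 0.85 ± 0.06 on the log2 scale (1.81-fold, adjusted p = 1.59e-06) and with GM-CSF by 0.59 ± 0.06 (adjusted p = 1.72e-05). These are mRNA levels. The translation step through which eIF2 acts on Atf4 was not measured.

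Ddit3, the gene of the CHOP transcription factor, had 125 and 124 CPM in GM-CSF with DON, 21.15 and 20.005 CPM in GM-CSF alone, and 18.5 and 22.6 CPM in no GM-CSF. The libraries with DON stood far above all others, and the libraries with and without GM-CSF overlapped. With DON the log2 fold change was 2.59 ± 0.08 (6.04-fold, adjusted p = 2.68e-08), the 47th largest of 12340. With GM-CSF it was 0.00 ± 0.09 (adjusted p = 0.988). That value had a small negative sign when 1 library was left out, at -0.13 without no GM-CSF replicate 1 (adjusted p = 0.190) and -0.04 without GM-CSF replicate 1 (adjusted p = 0.814).

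Atf3, a stress-inducible factor that ATF4 can switch on and that also responds to inflammatory signals, was lowest in GM-CSF alone. It had 334 and 340 CPM in GM-CSF with DON, 270 and 288 CPM in GM-CSF alone, and 422 and 394 CPM in no GM-CSF. Libraries without GM-CSF were the highest, and no groups overlapped. Atf3 rose with DON by 0.27 ± 0.05 (adjusted p = 0.000837) and fell with GM-CSF by 0.55 ± 0.05 on the log2 scale (adjusted p = 6.29e-06). With both agents it stayed below the level without GM-CSF, at -0.28 ± 0.05 (adjusted p = 0.000777).

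Atf5, a factor whose mRNA is under the same translational control as Atf4, had 163 and 144 CPM in GM-CSF with DON, 79.1 and 76.9 CPM in GM-CSF alone, and 27.7 and 27.4 CPM in no GM-CSF. Each group stood clear of the next. Its log2 fold changes were 0.97 ± 0.06 with DON (adjusted p = 9.41e-07) and 1.502 ± 0.07 with GM-CSF (adjusted p = 5.00e-08). Cebpg, a C/EBP protein that pairs with ATF4 on DNA, had 142 and 144 CPM in GM-CSF with DON, 81.6 and 87.8 CPM in GM-CSF alone, and 67.9 and 74.9 CPM in no GM-CSF. It rose with DON by 0.76 ± 0.06 (adjusted p = 3.33e-06) and with GM-CSF by 0.24 ± 0.06 (adjusted p = 0.00561), a call that was lost without GM-CSF replicate 2 (0.19, adjusted p = 0.0582).

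The next members act back on the pathway. Trib3, a pseudokinase that binds ATF4 and CHOP and restrains them, had 104 and 100.3 CPM in GM-CSF with DON, 18.2 and 22.1 CPM in GM-CSF alone, and 4.21 and 4.84 CPM in no GM-CSF. It formed a staircase of 3 separate levels. Its rise was 2.34 ± 0.08 on the log2 scale with DON (5.07-fold, adjusted p = 3.91e-08) and 2.15 ± 0.11 with GM-CSF (4.43-fold, adjusted p = 1.54e-07). No other member had so large a rise with GM-CSF.

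Ppp1r15a, whose product GADD34 brings protein phosphatase 1 to eIF2 and lets translation resume, had 46.0 and 45.3 CPM in GM-CSF with DON, 11.6 and 14.6 CPM in GM-CSF alone, and 23.5 and 23.1 CPM in no GM-CSF. As with Atf3, GM-CSF alone was the lowest group. Unlike Atf3, the level with DON was above that without GM-CSF. Ppp1r15a rose with DON by 1.80 ± 0.09 (3.49-fold, adjusted p = 2.48e-07) and fell with GM-CSF by 0.83 ± 0.09 on the log2 scale (adjusted p = 3.93e-05).

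Chac1 encodes an enzyme that breaks down glutathione and is a widely used readout of ATF4 and CHOP activity. It had 24.9 and 24.1 CPM in GM-CSF with DON, 4.05 and 4.13 CPM in GM-CSF alone, and 1.54 and 2.26 CPM in no GM-CSF. The libraries with DON were again far above the others, and GM-CSF alone was above no GM-CSF. Chac1 rose by 2.58 ± 0.12 with DON (5.99-fold, adjusted p = 1.57e-07) and by 1.10 ± 0.17 with GM-CSF (adjusted p = 0.000284).

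Sesn2 and Ddit4 (REDD1) encode inhibitors of mTORC1, the kinase complex of growth and protein synthesis, the first through amino acid sensing and the second through the TSC complex. Sesn2 had 119 and 117 CPM in GM-CSF with DON, 34.3 and 39.0 CPM in GM-CSF alone, and 23.7 and 26.7 CPM in no GM-CSF. Its groups did not overlap, and it rose by 1.69 ± 0.07 with DON (3.22-fold, adjusted p = 9.43e-08) and by 0.54 ± 0.08 with GM-CSF (adjusted p = 0.000197).

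Ddit4 was barely expressed, with 28 and 42 counts in GM-CSF with DON, 8 and 18 counts in GM-CSF alone, and 7 and 8 counts in no GM-CSF. These were 0.979 and 1.29 CPM, 0.235 and 0.604 CPM, and 0.215 and 0.238 CPM in the same order of groups. The rise with DON, 1.46 ± 0.44 (adjusted p = 0.0170), was the least firm of the 10. It was not called by DESeq2 (1.44, adjusted p = 0.0832), without GM-CSF replicate 1 (0.91, adjusted p = 0.157) or without DON replicate 2 (1.25, adjusted p = 0.113), and it was 2.26 without GM-CSF replicate 2 (adjusted p = 0.0115). With GM-CSF its log2 fold change was 0.85 ± 0.56 (adjusted p = 0.223), and those groups overlapped.

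Set against cells without GM-CSF, cells with both agents had 8 of 9 regulators called higher, against 27.2% of all tested genes, and 1, Atf3, called lower, against 28.4%. Ddit4, also called higher, is again left out of that count, since it passed the filter only through the libraries with DON. The median log2 fold change of the 9 was 2.22, and that of all tested genes 0.01. Trib3 stood furthest above the cells without GM-CSF, at 4.49 ± 0.10 (22.5-fold, adjusted p = 6.71e-10), followed by Chac1 at 3.68 ± 0.14 (12.9-fold, adjusted p = 1.30e-08). Ddit3 came next at 2.596 ± 0.08 (adjusted p = 4.42e-09), almost its DON effect, and Atf5 at 2.48 ± 0.07 (adjusted p = 1.91e-09). Ddit4 had 2.31 ± 0.49 (adjusted p = 0.00252), Sesn2 2.22 ± 0.07 (adjusted p = 6.87e-09), Atf4 1.44 ± 0.06 (adjusted p = 2.90e-08), Cebpg 1.003 ± 0.06 (adjusted p = 3.51e-07) and Ppp1r15a 0.97 ± 0.09 (adjusted p = 6.55e-06). All comparisons come from the same model, so each of these log2 fold changes adds up those of the first and second comparisons. They are not a separate line of evidence.

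To compare levels between genes, the authors' FPKM values (fragments per kilobase of gene, scaled to library size) were used, which account for gene length. In GM-CSF with DON the order of mean FPKM was Atf4 (434 ± 27.0), Atf3 (187 ± 2.13), Ddit3 (184 ± 0.0240), Atf5 (93.8 ± 8.39), Trib3 (59.4), Cebpg (43.7), Sesn2 (35.7), Ppp1r15a (30.8), Chac1 (16.8) and Ddit4 (0.754). No neighbours overlapped between libraries, although Atf3 and Ddit3 were nearly level. In GM-CSF alone Ddit3, at 33.2 FPKM, came after Atf4 (243), Atf3 (156) and Atf5 (48.2). There the libraries of Trib3 (11.5), Sesn2 (11.2) and Ppp1r15a (9.90) overlapped with their neighbours, so their order is not resolved. In no GM-CSF it was Atf3 (228 FPKM) that led, above Atf4 (160), with Ddit3 (31.2) after them and Trib3 (2.596), Chac1 (1.31) and Ddit4 (0.151) last. The ratio of Ddit3 to Atf4 in FPKM was 0.405 and 0.443 in GM-CSF with DON, 0.143 and 0.130 in GM-CSF alone, and 0.187 and 0.202 in no GM-CSF. CHOP mRNA stood higher relative to Atf4 mRNA in both libraries with DON than in the other 4.

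Most metabolic targets of ATF4 rose with GM-CSF, while with DON as many rose as fell, in shares near those of all genes. The list held 37 genes of amino acid and one-carbon synthesis, amino acid uptake and tRNA charging, of which 36 were tested. With DON 12 of 36 were called higher and 12 lower, against 28.8% of all tested genes in each direction, and 12 neither, with a median log2 fold change of -0.04. With GM-CSF 30 of 36 were called higher, against 27.5% of all tested genes, and 1, the transporter gene Slc7a6, lower, against 29.3%, with a median of 0.86. The lower call of Slc7a6 was lost under 6 alternative settings. Against cells without GM-CSF, cells with both agents had 31 higher and 2 lower, against 27.2% and 28.4% of all tested genes, with a median of 1.0. The medians of the 9 regulators without Ddit4 in the same 3 comparisons were 1.69, 0.54 and 2.22. These counts and medians describe the lists, and no test between lists was made.

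**Figure D2:**
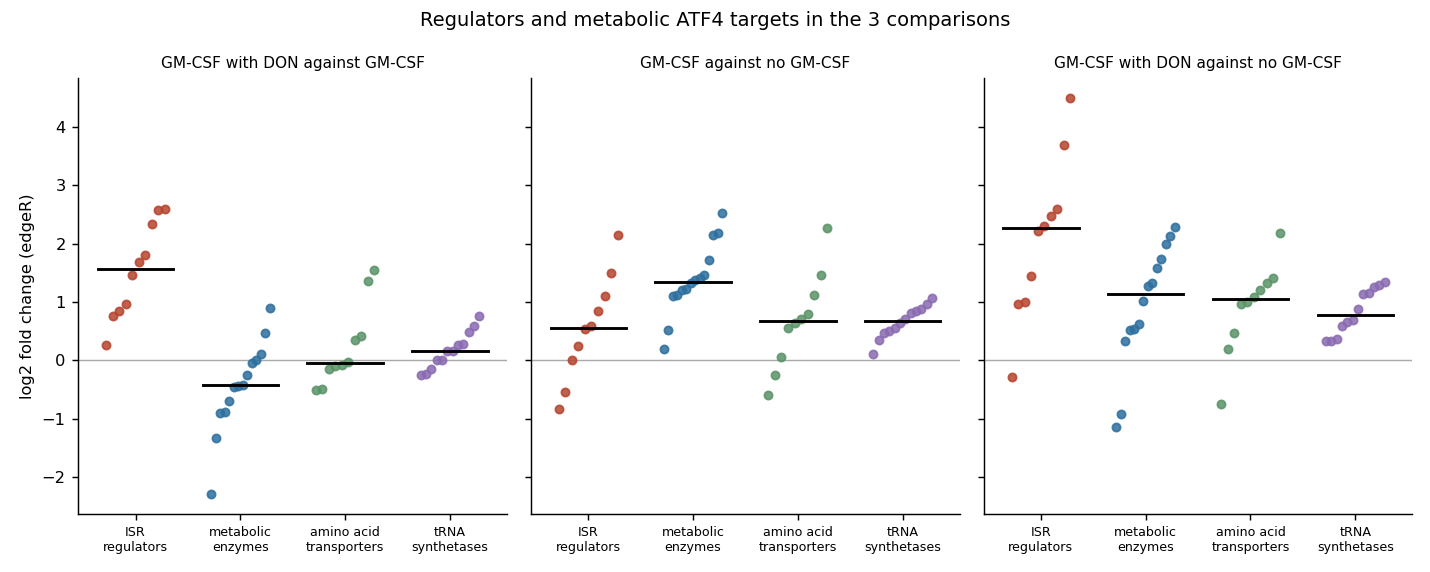
Log2 fold changes (vertical axis) of the 10 regulators and of 14 enzymes, 10 transporters and 12 tRNA synthetases among the metabolic ATF4 targets, in the 3 comparisons. Each point is a gene (Ddit4 included) and each black line the median of its class. With DON the regulators' median is 1.57 and the enzymes' -0.43, while with GM-CSF the enzymes' median of 1.35 is above the regulators' 0.56.

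By role, the 14 tested enzymes had the lowest median of the 3 classes with DON and the highest with GM-CSF. With DON 2 of the 14 were called higher and 7 lower, against 28.8% of all tested genes each way, with a median of -0.43. With GM-CSF 13 were called higher and 0 lower, against 27.5% and 29.3%, with a median of 1.35. Asns, which makes asparagine with glutamine as nitrogen donor, had 101 and 97.5 CPM in GM-CSF with DON, 98.5 and 107 CPM in GM-CSF alone, and 21.1 and 24.3 CPM in no GM-CSF. It rose with GM-CSF by 2.18 ± 0.07 (adjusted p = 7.23e-09) and gave -0.05 ± 0.07 with DON (adjusted p = 0.544), where its libraries overlapped. Psat1, an aminotransferase of serine synthesis, had 116 and 112 CPM in GM-CSF with DON, 204 and 215 CPM in GM-CSF alone, and 86.8 and 94.2 CPM in no GM-CSF. It fell with DON by 0.88 ± 0.05 on the log2 scale and rose with GM-CSF by 1.21 ± 0.05. Phgdh, the first enzyme of that route, was at 207 ± 7.18 CPM in GM-CSF with DON and 245 ± 5.12 CPM in GM-CSF alone, and also fell with DON (-0.25 ± 0.05, adjusted p = 0.00128). The largest falls were of the mitochondrial folate enzyme Mthfd1l (-1.33 ± 0.13) and of the proline enzyme Pycr1 (-2.29 ± 0.45), the second at 0.265 ± 0.0705 CPM in GM-CSF with DON and 1.30 ± 0.389 CPM in GM-CSF alone.

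Some metabolic targets rose with DON as the regulators did. Slc3a2, the heavy chain of the transporters of large neutral amino acids and cystine, had 607 and 570 CPM in GM-CSF with DON, 232 and 228 CPM in GM-CSF alone, and 219 and 221 CPM in no GM-CSF. As for Ddit3, the libraries with DON were far above the others. Its log2 fold change was 1.35 ± 0.04 with DON (adjusted p = 2.77e-08) and 0.06 ± 0.04 with GM-CSF (adjusted p = 0.244). Its partner Slc7a5 was at 142 ± 5.45 CPM in GM-CSF with DON and 151 ± 1.27 CPM in GM-CSF alone, and gave -0.09 ± 0.07 with DON (adjusted p = 0.315). The transporter gene Slc7a3 was called higher with DON (1.55 ± 0.47) on low counts, 18 and 22 in GM-CSF with DON, 5 and 9 in GM-CSF alone, and 12 and 10 in no GM-CSF. Of 12 tRNA synthetases 7 were called higher with DON and 3 lower, against 28.8% of all tested genes each way, among the higher ones the seryl-tRNA synthetase Sars (0.76 ± 0.05), and the enzyme gene Mthfd2 rose by 0.90 ± 0.08.

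Each regulator was also set over Asns within a library, in FPKM. For Ddit3 this ratio was 3.24 and 3.37 in GM-CSF with DON, 0.620 and 0.546 in GM-CSF alone, and 2.40 and 2.53 in no GM-CSF. It was lowest in GM-CSF alone, where Asns was high and Ddit3 was not. The ratio for Trib3 was 1.05 and 1.08 in GM-CSF with DON, 0.191 and 0.211 in GM-CSF alone, and 0.193 and 0.216 in no GM-CSF. Over Asns the Trib3 ratio was nearly the same with GM-CSF alone and without it, and higher in both libraries with DON. Over Psat1 it was 1.09 and 1.17, 0.111 and 0.126, and 0.0575 and 0.0691 in the same order of groups. Over Phgdh it was 0.482 and 0.501, 0.0712 and 0.0881, and 0.0947 and 0.114. The libraries with DON were highest over all 3 genes, while the order of the other groups depended on the gene set below. For Atf4 the ratio over Asns was 7.98 and 7.61 in GM-CSF with DON, 4.33 and 4.20 in GM-CSF alone, and 12.9 and 12.5 in no GM-CSF. Over Phgdh the libraries without GM-CSF were again the highest (6.30 and 6.58). Over Psat1 those with DON were (8.30 and 8.21, against 3.82 and 3.99 in no GM-CSF).

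**Figure D3:**
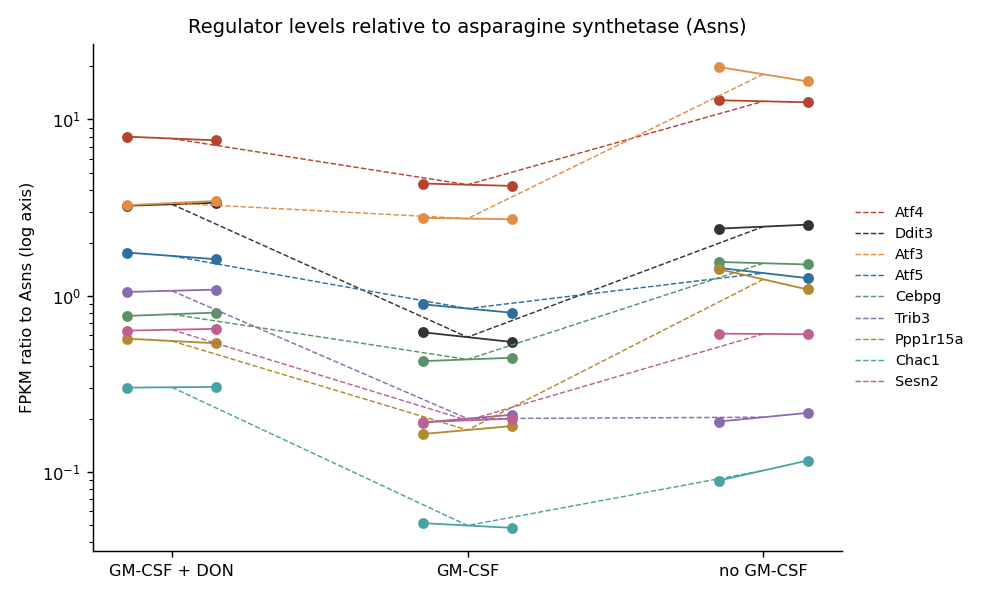
Ratio of the FPKM of each regulator to that of asparagine synthetase (Asns) in each library (log axis), with GM-CSF with DON on the left, GM-CSF alone in the middle and no GM-CSF on the right; Ddit4 is left out for its low counts. Joined points are the 2 libraries of a group and dashed lines link the geometric means of groups as a guide to the eye. The ratio of Trib3 is about level without DON, near 0.2, and above 1 with it.

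Trib3, Chac1, Sesn2 and Ppp1r15a are set here beside their paralogs, and relatives of the transcription factors follow further on. None of the paralogs tested was called higher with DON, against 28.8% of all tested genes. They are too few to be told apart from that share. Trib1, a relative of Trib3, had 14.7 and 15.7 CPM in GM-CSF with DON, 22.7 and 23.6 CPM in GM-CSF alone, and 18.1 and 16.5 CPM in no GM-CSF, and fell with DON by 0.60 ± 0.08 on the log2 scale (adjusted p = 0.000108). Trib2 had at most 2 counts in any library and was not tested. Sesn1 had a log2 fold change of 0.10 ± 0.12 with DON (adjusted p = 0.499) and fell with GM-CSF by 1.16 ± 0.11 on the log2 scale, where Sesn2 rose. Sesn3 gave 0.38 ± 0.43 with DON, not called. Chac2, the constitutive relative of Chac1, gave -0.20 ± 0.22 with DON (adjusted p = 0.462). Ppp1r15b, the constitutive partner of the eIF2 phosphatase, gave -0.06 ± 0.06 with DON (adjusted p = 0.419) and rose by 0.29 ± 0.06 with GM-CSF, where Ppp1r15a fell. The differences between paralogs were not tested.

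**Figure D4:**
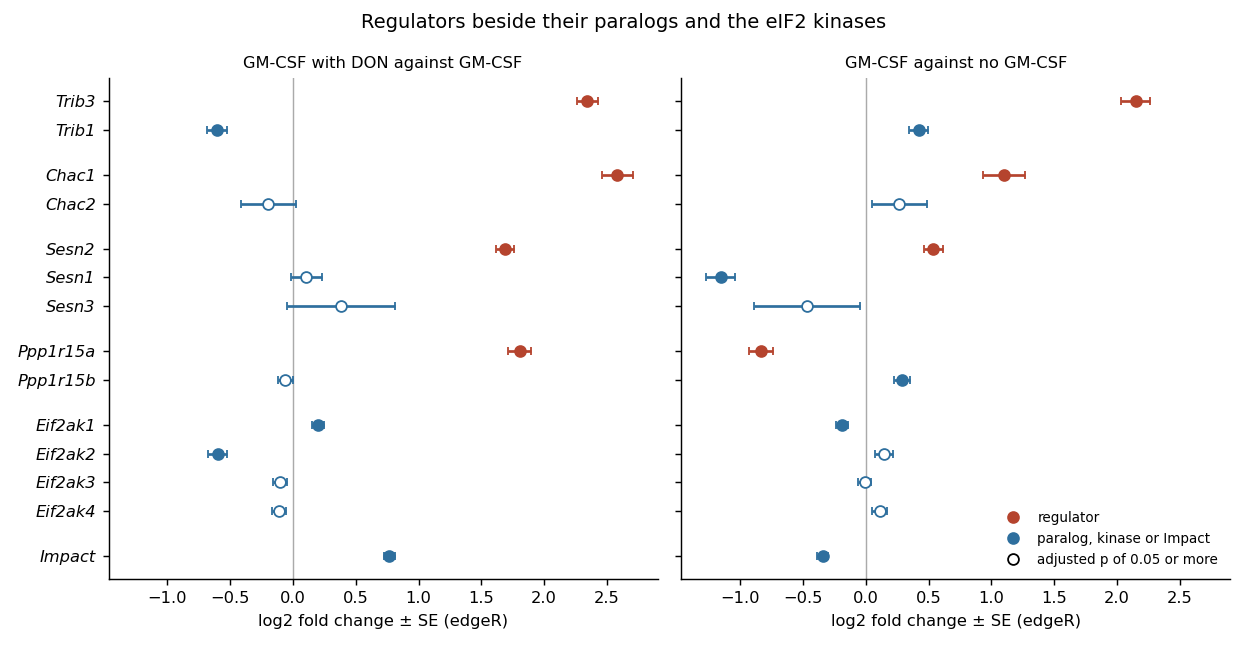
Log2 fold changes with their SE (horizontal axis) of the regulators Trib3, Chac1, Sesn2 and Ppp1r15a, their paralogs, the 4 eIF2 kinases and Impact, for GM-CSF with DON against GM-CSF (left) and GM-CSF against no GM-CSF (right). Open symbols have an adjusted p of 0.05 or more. On the left the 4 regulators lie between 1.69 and 2.58, and every paralog shown lies below 0.4.

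Among the genes upstream of Atf4, of the 4 eIF2 kinases 1 was called higher with DON, 1 lower and 2 neither. These counts are near the 28.8% of all tested genes called each way. Eif2ak3 (PERK) gave -0.10 ± 0.05 with DON (adjusted p = 0.132) and Eif2ak4 (GCN2) -0.11 ± 0.06 (adjusted p = 0.120). Eif2ak1 (HRI) rose by 0.20 ± 0.05 (adjusted p = 0.00445), and Eif2ak2 (PKR) fell by 0.60 ± 0.07 on the log2 scale (adjusted p = 7.32e-05). Impact, an inhibitor of GCN2, had 144 and 145 CPM in GM-CSF with DON, 86.3 and 83.8 CPM in GM-CSF alone, and 107.7 and 108 CPM in no GM-CSF. It rose with DON by 0.77 ± 0.04 and fell with GM-CSF by 0.34 ± 0.04 on the log2 scale, the same order of groups as Ppp1r15a. Over the list of 21 tested genes of eIF2, its kinases and its exchange factor, 4 were called higher with DON and 8 lower, against 28.8% of all tested genes each way, with a median of -0.11. The eIF2 subunit gene Eif2s1 (-0.66 ± 0.04) and the exchange factor subunit gene Eif2b1 (-0.54 ± 0.09) were among the lower ones. Kinase activity and eIF2 phosphorylation are not read by these measurements.

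A further list joined paralogs named above with relatives of the transcription factors, most of them with a basic leucine zipper. Of its 19 tested genes 10 were called higher with DON and 4 lower, against 28.8% of all tested genes each way, with a median of 0.19. With GM-CSF 6 were called higher and 5 lower, near the 27.5% and 29.3% of all tested genes. The 10 higher with DON were 8 of 11 genes classed with ATF and BATF factors, where 3 were lower, and 2 of 4 classed with C/EBP factors. Jdp2, a relative of Atf3 that represses transcription, had 23.0 and 22.7 CPM in GM-CSF with DON, 11.94 and 11.95 CPM in GM-CSF alone, and 5.75 and 5.88 CPM in no GM-CSF. It rose in both comparisons (0.93 ± 0.07 and 1.04 ± 0.09), unlike Atf3. Batf2 rose with DON (0.95 ± 0.27) and Batf3 fell (-0.91 ± 0.14). Nfe2l2, the antioxidant factor NRF2, was lower in cells with both agents than in cells without GM-CSF (-1.06 ± 0.04).

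Other known targets of ATF4 and CHOP were 21 on the list, of which 19 were in the table and 16 tested. With DON 11 of 16 were called higher and 1 lower, against 28.8% of all tested genes each way, with a median of 0.39. With GM-CSF 7 were called higher and 6 lower, against 27.5% and 29.3%, with a median of 0.25. Bbc3 (PUMA), a cell-death gene of the BCL2 family, had 27.3 and 28.4 CPM in GM-CSF with DON, 6.16 and 6.55 CPM in GM-CSF alone, and 6.64 and 6.03 CPM in no GM-CSF. It had the pattern of Ddit3, high in the libraries with DON and level in the other 4, with 2.13 ± 0.09 with DON (adjusted p = 7.70e-08) and 0.00 ± 0.10 with GM-CSF (adjusted p = 0.986). Gadd45a, a stress and growth arrest gene, had 31.8 and 35.7 CPM in GM-CSF with DON, 4.46 and 5.27 CPM in GM-CSF alone, and 15.5 and 16.4 CPM in no GM-CSF. It rose with DON by 2.80 ± 0.10 and fell with GM-CSF by 1.71 ± 0.11 on the log2 scale, so that its groups were ordered as those of Ppp1r15a.

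Of the 4 cell-death genes among these targets, 1, Bbc3, was called higher with DON and 1 lower, against 28.8% of all tested genes each way. The other 2 were not called. Pmaip1 (NOXA) fell with DON by 0.48 ± 0.08 on the log2 scale (adjusted p = 0.000658). Tnfrsf10b, the gene of a death receptor, gave -0.02 ± 0.23 (adjusted p = 0.956), and Bcl2l11 (BIM) gave 0.00 ± 0.08 (adjusted p = 0.989). Klhl24 rose with DON by 1.27 ± 0.05, and Vegfa, a growth factor gene, rose by 1.51 ± 0.45 at 1.29 ± 0.391 CPM in GM-CSF with DON and 0.453 ± 0.0234 CPM in GM-CSF alone. The stress-induced transcriptional regulator Nupr1 rose in both comparisons, with 34.4 and 33.9 CPM in GM-CSF with DON, 13.9 and 14.6 CPM in GM-CSF alone, and 5.63 and 7.51 CPM in no GM-CSF.

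The arms of the unfolded protein response that run through ATF6 and XBP1 were counted beside the regulators. Of 20 tested targets, 6 were called higher with DON and 11 lower, against 28.8% of all tested genes each way, with a median of -0.14. With GM-CSF 19 were called higher and 1 lower, against 27.5% and 29.3%, with a median of 0.70. Herpud1, a gene of endoplasmic reticulum protein degradation that ATF4 can also switch on, rose with DON by 0.98 ± 0.06. The kinase gene Ern1 (IRE1) and the co-chaperone gene Dnajb9 rose by 0.57 ± 0.07 and 0.55 ± 0.05, and the co-chaperone gene Dnajb11 fell (-0.54 ± 0.06). Of 17 tested genes around mTORC1, beyond Sesn2 and Ddit4, 8 were called higher with DON and 3 lower, against 28.8% of all tested genes each way, with a median of 0.19. Among the higher ones were Mlst8 (0.58), and Nprl3 (0.63) and Nprl2 (0.53), subunits of the GATOR1 complex that restrains mTORC1 when amino acids are short. A further GATOR1 subunit gene, Depdc5, was not called, at 18.0 ± 1.20 CPM in GM-CSF with DON and 18.4 ± 0.616 CPM in GM-CSF alone. The lower ones were Sec13 (-0.57), Rheb and Rptor.

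By the distance between log2 CPM profiles centred over the 6 libraries, among 8163 genes that averaged 10 CPM or more, the profile closest to that of Ddit3 was that of Bbc3 (0.679). Fbxo32, a ubiquitin ligase gene, followed at 0.768, then Fstl1 (0.932), Mllt3 (0.939) and Ypel2 (1.04). Fbxo32 was at 89.3 ± 4.17 CPM in GM-CSF with DON, 19.1 ± 4.72 CPM in GM-CSF alone and 22.8 ± 0.900 CPM in no GM-CSF. The regulators nearest to Ddit3 were Sesn2 (0.920) and Chac1 (1.04), and the one furthest from it was Atf3 (3.04). Closest to Atf4 were Herpud1 (0.127), the coagulation factor gene F10 (0.169), Sars (0.188), Gpr146 (0.229) and Btg1 (0.230), and among the regulators Cebpg (0.473). F10 was at 520.2 ± 11.1 CPM in GM-CSF with DON, 269 ± 7.78 CPM in GM-CSF alone and 199 ± 13.8 CPM in no GM-CSF. Genes were ranked over 6 libraries of 3 groups, so the likeness reflects mainly 3 group means.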

How the data were processed

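RNA sequencing libraries of cultured mouse alveolar macrophages were grouped by their titles. The authors deposited whole-number counts per gene symbol and, in a second table, FPKM values; per the submitters' processing notes the tools were DESeq2 1.28.1, STAR 2.6.0a, Subread 1.4.6 and featureCounts with the build mm10 (GRCm38), and no role is stated for any of them. Annotation, strand setting and filters are left unnamed in the sources used here. No column was left out.

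Counts were analysed with edgeR 4.0.16 (limma 3.58.1, R 4.3.3), and tables and figures were made in Python 3.11.15. Genes were filtered with filterByExpr (minimum count 10), which left 12340, and libraries scaled by TMM. All 6 libraries entered 1 model with a coefficient for each group, and comparisons were two-sided contrasts by the quasi-likelihood test, Benjamini-Hochberg adjusted across the tested genes. The biological coefficient of variation was 0.0501, with 3 residual and 6.74 prior degrees of freedom. The pipeline was tested on simulated counts. FPKM served for levels between genes and, with a pseudocount of 1 or 0.1, in limma as an alternative, as did DESeq2 1.42.0, other scalings and filters, 2-group fits, a replicate block and leaving out each library.

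Replicates differed by more than sampling noise (chi-square per degree of freedom 4.67 in GM-CSF with DON, 5.54 in GM-CSF alone, 8.90 in no GM-CSF). Numbers were not used as pairs, because the labels do not say that a number marks a shared animal, culture or day. Same-numbered libraries did not deviate together (r = 0.07 for GM-CSF with DON and GM-CSF, -0.05 for GM-CSF and no GM-CSF, -0.31 for GM-CSF with DON and no GM-CSF, over 8163 genes). With a single replicate difference per group, these values do not settle whether the libraries were paired.

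The members and lists were chosen with earlier results of these data known. Genes named besides the members were, from each list, up to 4 called genes with the largest absolute log2 fold change, the paralogs, the eIF2 kinases and the 5 nearest profiles of Ddit3 and Atf4. Asns, Psat1, Phgdh, Slc7a5, Mthfd2, Sars, Slc7a6, Nprl2, Depdc5, Rheb, Rptor, Pmaip1, Tnfrsf10b, Bcl2l11, Nupr1, Vwf and the other cell type markers were named after their values were seen wherever this rule does not name them. The lists' symbols Dele1, Ddit4l, Fgf21, Stc2, Cd3e, Nkg7, Ly6g, Mpo and Retnlg were not analysed here.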

Additional observations from a re-analysis of the deposited data

How the results depend on the processing

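The calls of 9 regulators with DON, of all 10 with both agents against none, and of 8 with GM-CSF kept their direction and side of the threshold under every alternative run: other scalings and filters, 2-group fits, DESeq2, limma-voom, FPKM in limma, the block and leaving out each library. Fits that left out a library aside, regulators called higher were 9 to 10 with DON, 6 with GM-CSF and 9 with both against none. Ddit4 is included there, although it passed the filter on low counts only through the libraries with DON. In the main fit 28.8%, 27.5% and 27.2% of all tested genes were called higher in these comparisons. The exceptions Ddit4 with DON and Cebpg with GM-CSF are given with their values in the results. FPKM with a pseudocount of 1 lowered Ddit4 to 0.46 with DON and 0.60 with both agents against none, and Chac1 to 2.96 in the last comparison, and total counts moved Atf3 there to -0.18. The log2 fold change of Ddit3 with GM-CSF, 0.00 and not called, was -0.13 (adjusted p = 0.190) without no GM-CSF replicate 1 and -0.04 (adjusted p = 0.814) without GM-CSF replicate 1, with a highest value of 0.16 when a library was left out. Over all genes, calls with DON also moved by setting, from 5962 with DESeq2 to 7308 in the 2-group fit. In the main fit 28.8% of all tested genes were called each way with DON and 27.5% higher with GM-CSF. That fit tested 36 metabolic targets. Fits that left out a library aside, 10 to 13 metabolic targets were called higher with DON and 11 to 13 lower, and 28 to 33 higher with GM-CSF. The single one lower with GM-CSF, Slc7a6, became 0 with total counts as the scaling, with DESeq2 and with FPKM at a pseudocount of 1 or 0.1, and was 0 to 1 when a library was left out; the cause was not tested. Scaling by total counts moved the median of all genes with GM-CSF to 0.10, against -0.02, and no regulator's call changed. In the 2-group fit with GM-CSF Ddit4 did not pass the filter. With the replicate block, 6882 genes were called with DON (7111 without it), 6708 with GM-CSF (7014) and 6542 with both against none (6859), with the same numbers of regulators in each direction. Crossed numbers, tried after seeing the data, gave 7063 for both against none. Ddit4, at 7 to 42 counts per library, is limited by depth. Groups of 2 libraries limit the rest.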
